A study of Mus musculus with 6 samples.

Results

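The cytochrome P450 genes of the mouse were examined in RNA of 6 osteosarcomas. The members are the protein-coding genes whose symbol has the form Cyp, a family number, a subfamily letter and a gene number, which gave 93 of the 39179 genes in the count table. Of these, 75 belong to families 1 to 4, which hold most drug- and steroid-metabolizing P450s as well as the fatty acid hydroxylases, and 18 belong to other families, which make and break down bile acids, oxysterols, vitamin D, retinoic acid and steroid hormones. P450 genes whose symbols have another form (*Cyp51*, *Tbxas1*, *Ptgis*, *Cyp3a41a*, *Cyp3a41b*, *Cyp4a12a* and *Cyp4a12b*) were read beside them and not counted among the members.

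The tumors came from mice of a background mixed from C57BL/6, 129/Sv and FVB, all of which carried the germline genotype *Nf2*Δ2/+, a mutation of the tumor suppressor *Nf2*. 3 tumors were *Cd44*+/+ (mice No244, No316 and No368) and 3 were *Cd44*-/- (mice No203, No279 and No364). The comparison asks how tumor RNA differs when the surface receptor CD44 is absent from the whole mouse, so a difference may sit in tumor cells or in any other cell of the tissue. The age and sex of the mice are not given, and the study describes the material as primary tumor tissue, while the extraction text in the labels speaks of cell lines.

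P450 enzymes are heme proteins that insert oxygen into small, mostly oily molecules. Those in the endoplasmic reticulum take electrons from P450 reductase and cytochrome b5, and the mitochondrial ones (*Cyp11a1*, *Cyp11b1*, *Cyp11b2*, *Cyp24a1*, *Cyp27a1*, *Cyp27b1*) take them from ferredoxin. The liver is the main site of the drug-metabolizing families, while bone-forming cells are known for responding to vitamin D and retinoic acid, whose levels are set by P450s.

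Total counts lay between 18076388 in No368 and 26954142 in No364. Mitochondrial genes held 55.2% of all counts of No244, while their share was 5.94% to 12.5% elsewhere. Levels are given as CPM, each count divided by the size of its library in megareads after TMM scaling by trimmed mean ratios between libraries. In these units 3 counts, the smallest number read as detected, were 0.0990 to 0.252 CPM. No316 and No368 lay within the 95% range of sampling noise around their median ratio in 87.2% of 16671 genes. The share was 15.7% to 24.1% in the other 14 pairs of tumors. Reads drawn from 1 library for both would lie in that range for about 95% of genes. No316 and No368 may be 1 library deposited under both names, which was not tested. Their average therefore enters each mean ± SD as a single value, so that n = 2 for *Cd44*+/+ and n = 3 for *Cd44*-/-. *Cd44* itself was read at 137 CPM in No244, at 243.6 CPM in No316 and at 240.3 CPM in No368, against 19.2, 15.7 and 61.8 CPM in No203, No279 and No364. The exon deleted in the knockout is not named in the sources used here, so the reads that remain were not assigned to a part of the gene.

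2 of the 3 *Cd44*-/- libraries differed from the rest in some cell type markers. The 10 osteoblast markers, led by the collagen genes *Col1a1* and *Col1a2*, summed to between 33866 and 84906 CPM in No244, No316, No368 and No203, to 22538.5 CPM in No279 and to 3691 CPM in No364. *Col1a1* in No279 (11990.4 CPM) was above its level in No244 (8482 CPM). Of the 10, *Sp7*, *Ibsp* and *Dmp1*, more restricted to bone-forming cells and singled out after their values were seen, lay between 147 and 4820.2 CPM in No244, No316, No368 and No203, but between 0.363 and 3.96 CPM in No279 and between 0.314 and 2.25 CPM in No364. The 18 hepatocyte markers summed to 138016 CPM in No364, led by *Alb* at 60281 CPM, and to between 65.1 and 205 CPM in the other 5 tumors. The 5 markers of Kupffer cells, the macrophages of the liver, summed to 126 CPM in No364 and to between 0.336 and 10.98 CPM elsewhere. The part of these cells in the results was not tested. A list of 5 genes held Y-linked *Ddx3y*, *Eif2s3y*, *Uty* and *Kdm5d* and also *Xist*. All 5 reached the floor of 3 counts in No279 and No364, against 2 in No244 and 1 each in No316, No368 and No203. At 1 CPM or more there were 4 each in No279 and No364. The summed level went the other way. It was 1245, 995, 938 and 859 CPM in No244, No316, No368 and No203, against 44.7 CPM in No279 and 70.5 CPM in No364. *Ddx3y*, *Uty* and *Kdm5d* were above that floor in No279 and No364 and not in the others, of which No203 is the *Cd44*-/- one. Presumed sex, read from these 3 genes alone, and genotype thus overlap in part. In bulk RNA, fewer cells of a type and less RNA per cell cannot be told apart. Genotype results are therefore set beside those without No364.

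P450s hold their heme iron by a cysteine, in a loop whose usual form is written F-x-x-G-x-R-x-C-x-G in amino acids. Searched in the longest coding transcript of GENCODE M21 (GRCm38), this pattern was found in 85 of the 93 genes, 72 of the 75 in families 1 to 4 and 13 of the 18 in other families. The 8 without this exact form include the working enzymes *Cyp7a1*, *Cyp7b1*, *Cyp8b1* and *Cyp39a1*. The coding stretch of the loop is shown for 6 members the results turn on, 5′ to 3′, with the codon of the heme-binding cysteine in capitals.
Cyp2e1: ttttctgcaggaaagcgcgtgTGTgttgga
Cyp1b1: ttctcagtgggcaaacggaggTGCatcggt
Cyp26a1: tttggaggaggccttcggagcTGTgtaggc
Cyp26b1: tttggcggtggcgtgcggaccTGCctgggc
Cyp27a1: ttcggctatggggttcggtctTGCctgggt
Cyp46a1: ttttccctgggccaccggtccTGCatcggc
The cysteine is residue 437 of the *Cyp2e1* product, 470 of *Cyp1b1*, 442 of *Cyp26a1*, 441 of *Cyp26b1*, 479 of *Cyp27a1* and 437 of *Cyp46a1*. All 6 stretches differ from each other at several bases. The loop does not tell all members apart, since it is the same in *Cyp2c40*, *Cyp2c67*, *Cyp2c68* and *Cyp2c69*, and in *Cyp2a4* and *Cyp2a5*. Near-identical copies exist elsewhere in the family. Of all stretches of 51 bases, the read length, a median of 95.9% per member occurred in no other annotated gene. The share was 100% for *Cyp1b1*, *Cyp26a1*, *Cyp26b1*, *Cyp27a1* and *Cyp46a1* and 96.3% for *Cyp2e1*. It was under 50% for 3 members, *Cyp2c40* (40.3%), *Cyp2c67* (47.9%) and *Cyp2c69* (46.2%), and it was 62.9% for *Cyp2a4* and 63.8% for *Cyp2a5*, which share most of the rest with each other. How reads that match several genes were counted is not stated, so the split of counts among such copies is uncertain, while sums over a subfamily are less affected.

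P450 genes of families 1 to 4 were low in 5 tumors and very high in No364. Their summed level was 336, 207 and 202 CPM in the *Cd44*+/+ tumors and 141, 215 and 25152 CPM in No203, No279 and No364. The 18 genes of other families summed to 63.3, 112 and 115 CPM in the *Cd44*+/+ tumors and to 56.2, 67.6 and 1599 CPM in No203, No279 and No364. Without No364 the 5 remaining tumors overlapped in both sums. In raw counts, the 93 genes made up 1.896% of No364 (95% Wilson interval 1.891% to 1.902%) and between 0.0220% and 0.0419% in the others. Intervals and the floor of 3 counts cover counting error only.

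**Figure D1:**
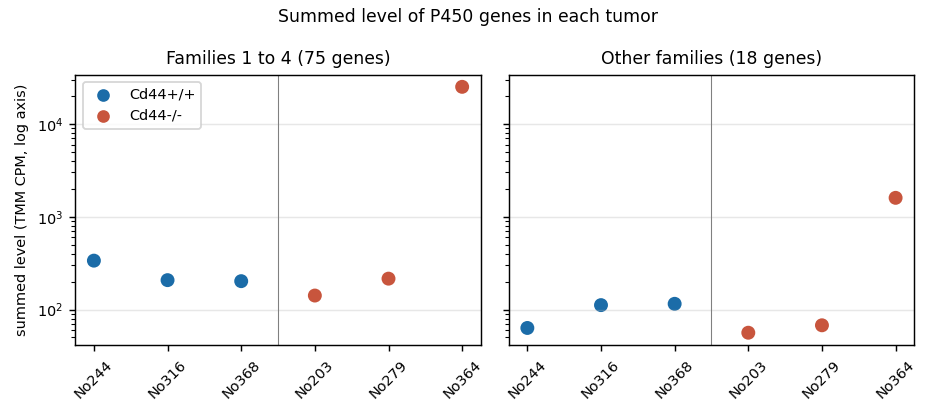
Summed level (TMM CPM, log axis) of the 75 P450 genes of families 1 to 4 and the 18 of other families in each tumor, with *Cd44*+/+ in blue and *Cd44*-/- in red. No364 lies at 25152 and 1599 CPM, and the other 5 tumors lie between 141 and 336 CPM and between 56.2 and 115 CPM.

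The number of members present followed the same split. At least 1 CPM was reached by 69 members in No364 and by 16 to 24 in each other tumor. 60 members stayed under 1 CPM in all 5 other tumors, and 42 of these were at 1 CPM or more in No364. 6 members had no count in any tumor (*Cyp2c66*, *Cyp2j11*, *Cyp2j12*, *Cyp2w1*, *Cyp4a29* and *Cyp19a1*). Of the 87 members with any count, 66 had their highest level in No364, against 26.3% of all genes with any count.

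**Figure D2:**
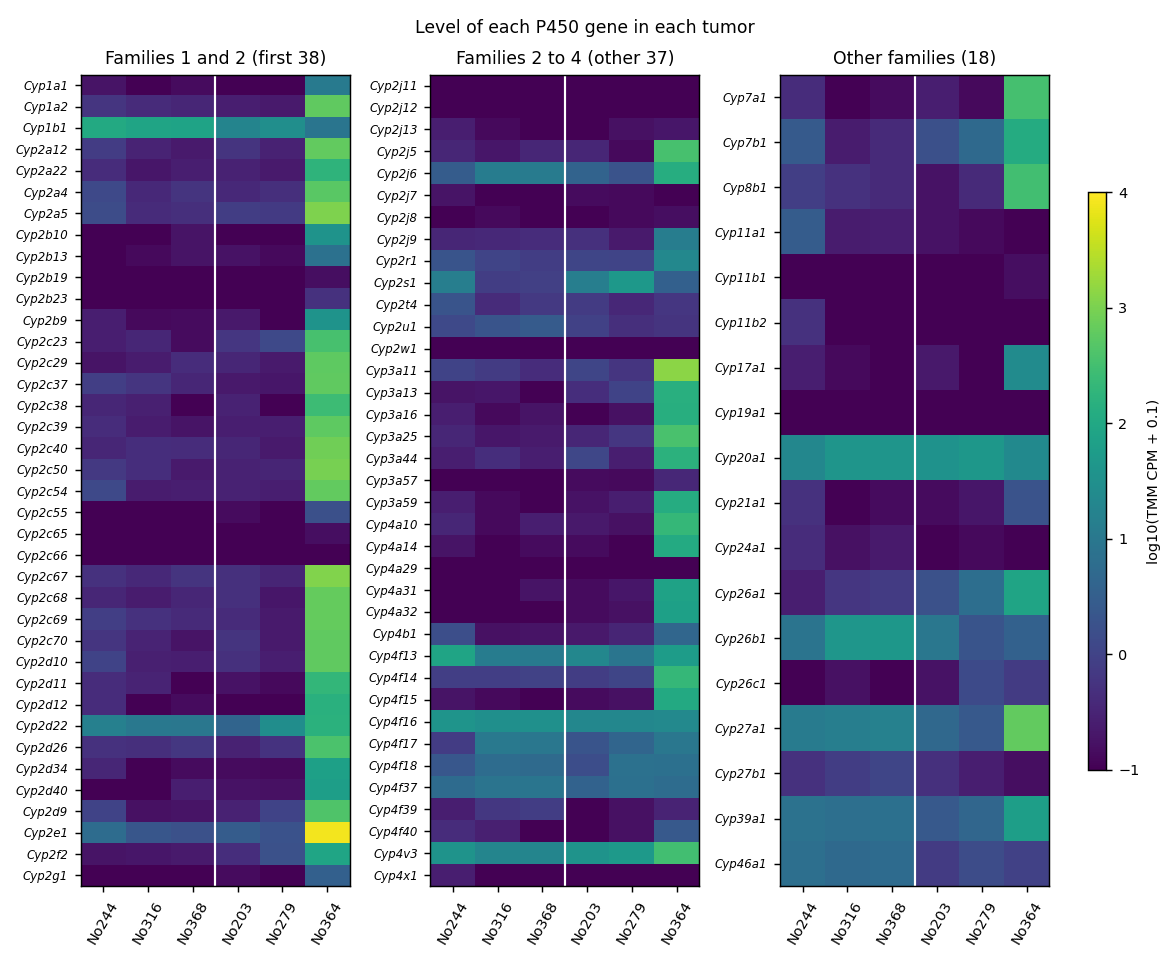
Level of each of the 93 members (rows, by family) in each tumor (columns), as log10(TMM CPM + 0.1), with a white line between the *Cd44*+/+ tumors on the left and the *Cd44*-/- tumors on the right. The No364 column is bright for most rows of families 1 to 4, while rows such as *Cyp1b1*, *Cyp4f16* and *Cyp20a1* are visible in every tumor.

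In No364 the drug-metabolizing subfamilies led. *Cyp2e1*, which oxidizes ethanol and other small molecules, stood at 8074.5 CPM in No364 and at 5.63, 2.12, 1.64, 2.74 and 1.68 CPM in No244, No316, No368, No203 and No279, and it alone made up 30.2% of the summed P450 level of No364. The 15 *Cyp2c* genes summed to 7823 CPM there and to at most 5.55 CPM elsewhere. The 4 *Cyp2a* genes, which oxidize coumarin and steroids, summed to 2409 CPM, and the 7 *Cyp3a* genes, the broadest drug metabolizers, to 2280.3 CPM, against at most 3.53 and 2.82 CPM elsewhere. *Cyp1a2*, which acts on caffeine and aromatic amines, was at 606 CPM in No364 and at most 0.504 CPM elsewhere. Its neighbour *Cyp1a1*, the classical target of the aryl hydrocarbon receptor, reached 10.9 CPM in No364 and had at most 1 count in each of the other tumors. The other leading genes of No364 were *Cyp2c50* (931 CPM), *Cyp2c68* (651 CPM), *Cyp2c54* (640 CPM), *Cyp2a12* (618 CPM), *Cyp2c70* (615 CPM), *Cyp2d10* (595 CPM), *Cyp2c37* (589 CPM), *Cyp2c39* (576 CPM) and *Cyp2c29* (568.5 CPM), none above 1.18 CPM in any other tumor. *Cyp4a32*, of a fatty acid hydroxylase group, was 68.0 CPM there and under the floor elsewhere. Among single genes, *Cyp3a11* (1349 CPM), *Cyp2c67* (1138 CPM) and *Cyp2a5* (1081 CPM) followed *Cyp2e1* in No364. Per kilobase of exon, *Cyp2e1* was first there at 3742 CPM per kb, and *Cyp2c67* (657 CPM per kb) and *Cyp2a5* (522 CPM per kb) came next.

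P450 genes that liver makes mostly in one sex were present in No364 from both lists. The 4 male-predominant genes (*Cyp2d9*, *Cyp7b1*, *Cyp4a12a*, *Cyp4a12b*) summed to 1937 CPM in No364. The 9 female-predominant genes summed to 3172 CPM there, led by *Cyp2c40* (824 CPM) and *Cyp2c69* (668 CPM). *Cyp2b9* and *Cyp2b13*, also on the female list, were at 37 and 7.17 CPM, and *Cyp3a44* and *Cyp3a16* at 162 and 136 CPM. *Cyp2c40* and *Cyp2c69* are among the genes whose counts cannot be split with certainty.

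Most of these genes were found in the other tumors at a small share of their count in No364. Of 49 members with at least 1000 counts in No364, 29 had at most 0.2% of that count in every other tumor, 10 lay between 0.2% and 1% in their highest other tumor, and 10 were above 1% in at least 1. The median over the 49 genes was 0.0677% in No244, 0.0562% in No316, 0.0519% in No368, 0.0804% in No203 and 0.0871% in No279. The hepatocyte markers had medians of 0.0553%, 0.0672%, 0.0427%, 0.131% and 0.0881% in the same tumors, so both groups of genes lay in the same range, and the source of these reads was not tested. The 10 members above 1% were *Cyp27a1*, *Cyp7b1*, *Cyp26a1*, *Cyp2j6*, *Cyp39a1*, *Cyp2d22*, *Cyp4v3*, *Cyp4f13*, *Cyp2f2* and *Cyp3a13*. The last 2 passed that limit in No279 alone, with *Cyp2f2*, a lung and liver enzyme, at 1.62 CPM and *Cyp3a13* at 0.891 CPM there.

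**Figure D3:**
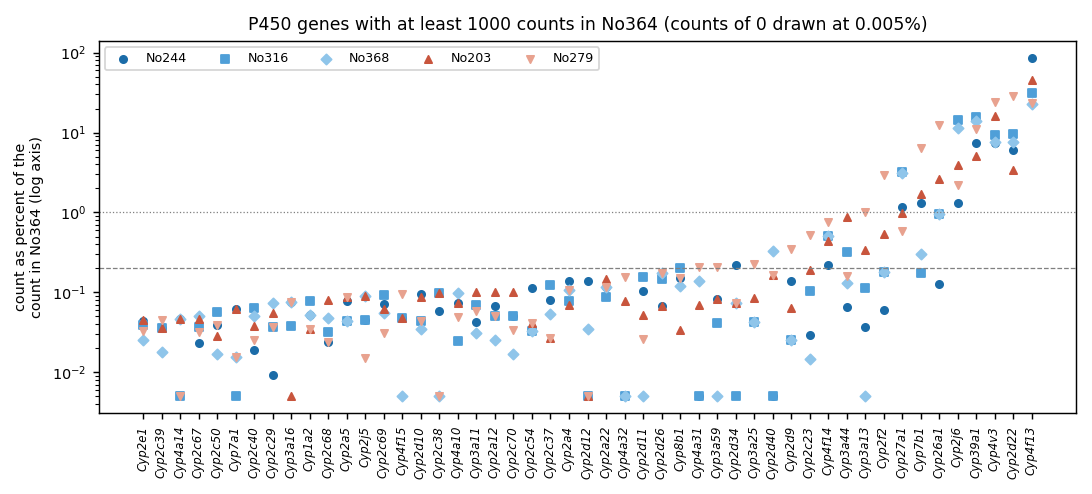
Raw count of each of 49 P450 genes (horizontal axis, ordered by the highest value) in the 5 other tumors as percent of its count in No364 (log axis, with counts of 0 at the bottom). The dashed line is at 0.2% and the dotted line at 1%, and 29 genes lie at or under the dashed line in all 5 tumors while *Cyp4f13*, *Cyp2d22* and *Cyp4v3* lie farthest above the dotted line.

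Outside No364, the P450 signal came from few genes. 13 members were at 1 CPM or more in all 6 tumors, namely *Cyp1b1*, *Cyp2d22*, *Cyp2e1*, *Cyp2j6*, *Cyp4f13*, *Cyp4f16*, *Cyp4f18*, *Cyp4f37*, *Cyp4v3*, *Cyp20a1*, *Cyp26b1*, *Cyp27a1* and *Cyp39a1*. *Cyp1b1* was the largest single share in No244 (27.6% of the summed P450 level), No316 (26.4%) and No368 (25.4%), and *Cyp4v3* in No203 (19.1%) and No279 (16.8%). Per kilobase of exon, *Cyp1b1* was first in No244 at 18.9 CPM per kb, and *Cyp20a1*, a P450 of unknown substrate, was first in No316 (17.9), No368 (17.4), No203 (15.2) and No279 (19.4 CPM per kb). The leading gene by this measure was thus not a drug-metabolizing liver P450 in any of these 5 tumors.

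The difference between *Cd44*-/- and *Cd44*+/+ was tested over all genes by the quasi-likelihood method of edgeR. Of the 93 members, 29 passed its filter on low counts (22 of families 1 to 4 and 7 of other families), and a member that passed through No364 and traces elsewhere had to look higher in *Cd44*-/-. 0 members were called at a Benjamini-Hochberg adjusted p under 0.05, as were 0.0% of the 16839 genes tested. *Cd44*, the gene deleted in the knockout, was not called by edgeR either, at a log2 fold change of -2.68 (SE 0.65). DESeq2, the other tool described below, did call *Cd44* with all 6 tumors. The edgeR fit thus did not call even the deleted gene, and its lack of calls cannot show that P450 genes are unchanged. At an unadjusted p under 0.05, edgeR gave 12 members higher in *Cd44*-/- and 4 lower, against 6.44% and 4.31% of all genes tested and 10.7% in either direction. All 12 of the higher ones (*Cyp2a4*, *Cyp2a5*, *Cyp2c23*, *Cyp2d26*, *Cyp2d9*, *Cyp2e1*, *Cyp3a11*, *Cyp3a44*, *Cyp4f14*, *Cyp4v3*, *Cyp7b1* and *Cyp26a1*) had their highest level in No364. The 4 lower ones were *Cyp1b1*, *Cyp2u1*, *Cyp26b1* and *Cyp46a1*.

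Without No364 the picture turned. The median log2 fold change was 2.39 over the 29 members with all tumors (0.11 over all genes tested) and -0.50 over the 31 members tested without No364 (0.04 over all genes). 2 members were then higher at an unadjusted p under 0.05 (*Cyp2c23* and *Cyp26a1*, against 4.62% of all genes) and 4 lower (*Cyp1b1*, *Cyp4f39*, *Cyp27a1* and *Cyp46a1*, against 4.2%). Of the 12 members that were higher with No364, 4 changed sign without it (*Cyp2a4*, *Cyp2a5*, *Cyp2d26* and *Cyp2e1*).

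The tool mattered for the calls. The Wald test of DESeq2, the tool of the study, called 3 members with all 6 tumors, *Cyp46a1*, *Cyp1b1* and *Cyp26a1*, against 2.33% of all genes with an adjusted p. With No316 and No368 summed as 1 sample it called 1, *Cyp26a1* (0.797% of all genes), and without No364 it called 3, *Cyp46a1*, *Cyp1b1* and *Cyp27a1* (2.36% of all genes). With all tumors, DESeq2 gave no p for many members that were high in No364. These include *Cyp2a4*, *Cyp2a5*, *Cyp2c23*, *Cyp2d26*, *Cyp2d9*, *Cyp2e1*, *Cyp3a11*, *Cyp3a44*, *Cyp4f14* and *Cyp7b1*. They were thus not tested by DESeq2 there, rather than tested and not called. Among the 29 tested members, the 3 *Cd44*-/- levels lay all above the *Cd44*+/+ levels in 3 (*Cyp2c23*, *Cyp4v3* and *Cyp26a1*, background 9.49%) and all below in 4 (*Cyp1b1*, *Cyp2u1*, *Cyp4f16* and *Cyp46a1*, background 9.57%).

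**Figure D4:**
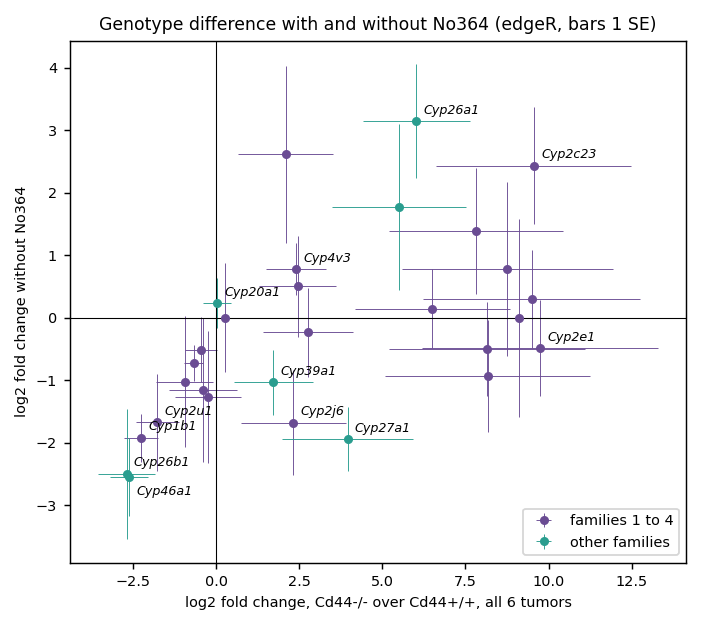
Log2 fold change of *Cd44*-/- over *Cd44*+/+ (edgeR) with all 6 tumors (horizontal axis) and without No364 (vertical axis) for the 29 members tested in both fits, with bars of 1 SE and colors for families 1 to 4 and other families. Several points far right lie near or below 0 on the vertical axis (*Cyp2e1*: 9.75 and -0.48) while *Cyp2c23* (9.56 and 2.43) and *Cyp26a1* (6.02 and 3.14) stay above it, *Cyp27a1* and *Cyp39a1* change sign, and *Cyp1b1*, *Cyp46a1* and *Cyp26b1* lie below 0 on both axes.

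Of the P450s that the aryl hydrocarbon receptor induces, only *Cyp1b1* reached 1 CPM in all tumors. *Cyp1b1* (chr17:79701537-79715061, minus strand) hydroxylates estrogens, polycyclic hydrocarbons and retinol and is known from mesenchymal tissues rather than liver. Its level was 110.5, 84.1 and 80.5 CPM in the *Cd44*+/+ tumors and 18.2, 30.01 and 8.58 CPM in No203, No279 and No364. All 3 *Cd44*-/- tumors lay below all *Cd44*+/+ tumors, and No364, which led most P450 genes, was the lowest. The means were 96.4 ± 19.95 CPM (SD, n = 2) and 18.9 ± 10.7 CPM (SD, n = 3). The log2 fold change was -2.27 (SE 0.51, unadjusted p = 0.0033), with an edgeR adjusted p of 0.452. It stayed between -2.77 and -1.92 when each tumor was left out and was -1.87 with the hepatocyte score as a covariate. That score, the mean log2(CPM + 1) of the hepatocyte markers, was 11.6 in No364 and 1.71 to 2.55 in the other tumors. Using it as a covariate thus nearly repeats leaving out No364, here and for the genes below, and is not a separate check. All values that follow in this paragraph are for *Cyp1b1*. The adjusted p of DESeq2 was 0.0158 with all tumors, 0.0086 without No364 and 0.160 with No316 and No368 summed, and over 17 alternatives the adjusted p ran from 0.0086 to 0.989.

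RNA of the receptor itself ordered the tumors differently. *Ahr* was 9.92, 14.5 and 14.5 CPM in the *Cd44*+/+ tumors and 6.03, 65.5 and 190 CPM in No203, No279 and No364 (log2 fold change 2.75, SE 1.06, edgeR adjusted p = 0.452, and 1.47 without No364). No364 had the most *Ahr* and the least *Cyp1b1*, and it was also the tumor rich in hepatocyte markers. A relation between receptor and *Cyp1b1* was not tested. The 250 bases before the RefSeq start of *Cyp1b1* (chr17:79715062-79715311, minus strand, GRCm38.p6) hold 1 copy of GCGTG, the core letters that the receptor binds, found here on the opposite strand and shown in capitals.
Cyp1b1 promoter: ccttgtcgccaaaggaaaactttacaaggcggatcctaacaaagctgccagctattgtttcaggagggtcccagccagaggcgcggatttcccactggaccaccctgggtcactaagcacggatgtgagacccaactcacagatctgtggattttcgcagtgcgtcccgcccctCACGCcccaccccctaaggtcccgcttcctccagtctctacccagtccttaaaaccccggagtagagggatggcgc
The same 5 letters, searched on both strands, occur in 28.2% of the 32851 promoter windows of that length and in 14 of the 72 member genes that have a window, so the match by itself says little. This motif and the next were chosen after the values had been seen.

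Several fatty acid and eicosanoid P450s were found in every tumor. *Cyp4f16*, a member of the subfamily that hydroxylates long fatty acids and leukotrienes, was 37.8, 30.9 and 32.5 CPM in the *Cd44*+/+ tumors and 20.3, 20.5 and 22.3 CPM in No203, No279 and No364. The groups did not overlap and the spread within each was small, yet the log2 fold change was only -0.68 (SE 0.29, unadjusted p = 0.052, edgeR adjusted p = 0.46). Of its 51-base stretches 15.9% occur in *Cyp4f37*, which was 5.55, 8.27 and 8.69 CPM against 3.69, 6.80 and 5.81 CPM and overlapped between genotypes. *Cyp4f13* ranged from 8.78 CPM in No279 to 82.0 CPM in No244, and *Cyp4f17* from 0.672 CPM in No244 to 10.3 CPM in No316, so these neighbours ordered the tumors differently.

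*Cyp4v3*, the mouse form of an enzyme of ocular fatty acid metabolism, was 37.2, 19.0 and 18.9 CPM in the *Cd44*+/+ tumors and 37.7, 47.4 and 310 CPM in No203, No279 and No364. The groups did not overlap, but No203 exceeded No244 by little. The log2 fold change was 2.39 (SE 0.90, edgeR adjusted p = 0.452) with all tumors and 0.78 (SE 0.41) without No364. *Cyp2s1*, which acts on retinoic acid and fatty acid peroxides in epithelia, overlapped between genotypes and ranged from 0.695 CPM in No316 to 45.4 CPM in No279. The ubiquitous fatty acid hydroxylase *Cyp2u1* was low throughout, 1.18, 1.91 and 2.64 CPM against 0.833, 0.363 and 0.471 CPM (log2 fold change -1.78, SE 0.65, edgeR adjusted p = 0.452, and -1.67 without No364), and it overlaps a gene on the opposite strand.

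*Cyp2j6*, an arachidonic acid epoxygenase, was 2.69, 12.4 and 11.7 CPM in the *Cd44*+/+ tumors and 3.81, 1.78 and 129 CPM in No203, No279 and No364, a log2 fold change of 2.32 with No364 and -1.68 without it. *Cyp2c23*, another epoxygenase, was at most 0.243 CPM in *Cd44*+/+ tumors and 0.516, 1.16 and 354 CPM in No203, No279 and No364 (log2 fold change 9.56, SE 2.94, and 2.43, SE 0.94, without No364). Outside No364 its counts were 2, 7, 1, 13 and 35, so that difference rests on few reads. *Cyp2d22*, a member of the drug-metabolizing *Cyp2d* group, was the member of that group at 1 CPM or more in every tumor (14.9, 9.77 and 9.45 CPM against 4.005, 27.9 and 153 CPM).

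The 2 prostanoid synthases that are P450s by structure but not by symbol were lower in each *Cd44*-/- tumor. *Tbxas1*, thromboxane synthase, was 8.82, 11.02 and 12.3 CPM against 2.46, 1.82 and 4.40 CPM (log2 fold change -1.89, SE 0.53, edgeR adjusted p = 0.452, and -2.32 without No364). DESeq2 gave *Tbxas1* an adjusted p of 0.0271, and 0.300 with No316 and No368 summed. *Ptgis*, prostacyclin synthase, was 287, 423 and 416 CPM against 165, 63.0 and 5.44 CPM (log2 fold change -2.27, SE 1.06, edgeR adjusted p = 0.48, and -1.71 without No364), with No364 lowest. Neither was called by edgeR.

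The 3 retinoic acid hydroxylases, which clear the hormone, differed in order among themselves. *Cyp26a1* (chr19:37697798-37701536, plus strand) was 0.168, 0.521 and 0.630 CPM in the *Cd44*+/+ tumors and 1.63, 6.37 and 81.6 CPM in No203, No279 and No364. All 3 *Cd44*-/- levels lay above all *Cd44*+/+ levels, with a range of its own between No203 and No364 that was wider than the gap to the controls. The log2 fold change was 6.02 (SE 1.62, unadjusted p = 0.0080, edgeR adjusted p = 0.452), 3.14 (SE 0.91) without No364 and 2.96 with the hepatocyte score as a covariate. DESeq2 gave *Cyp26a1* an adjusted p of 0.0015 with all tumors, 0.0164 with No316 and No368 summed and 0.0521 without No364, and 16 alternatives ran from 0.0015 to 0.989.

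*Cyp26b1* (chr6:84571414-84593908, minus strand), the form that skeletal tissues are known for, was 8.23, 43.2 and 44.6 CPM in the *Cd44*+/+ tumors and 9.44, 1.91 and 3.40 CPM in No203, No279 and No364. The groups overlapped, since No203 lay just above No244. The log2 fold change was -2.70 (SE 0.87, edgeR adjusted p = 0.452), and it lay between -3.63 and -2.32 when each tumor was left out. The 2 tumors with little *Sp7* and *Ibsp* were those with the least *Cyp26b1* and the most *Cyp26a1*. Those 2 markers were singled out of 10 after their values were seen, and *Col1a1* in No279 was above its level in No244. A relation between the markers and these P450s was not tested. *Cyp26c1* was under the floor in No203 and in all *Cd44*+/+ tumors and reached 1.25 CPM in No279 and 0.628 CPM in No364.

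**Figure D5:**
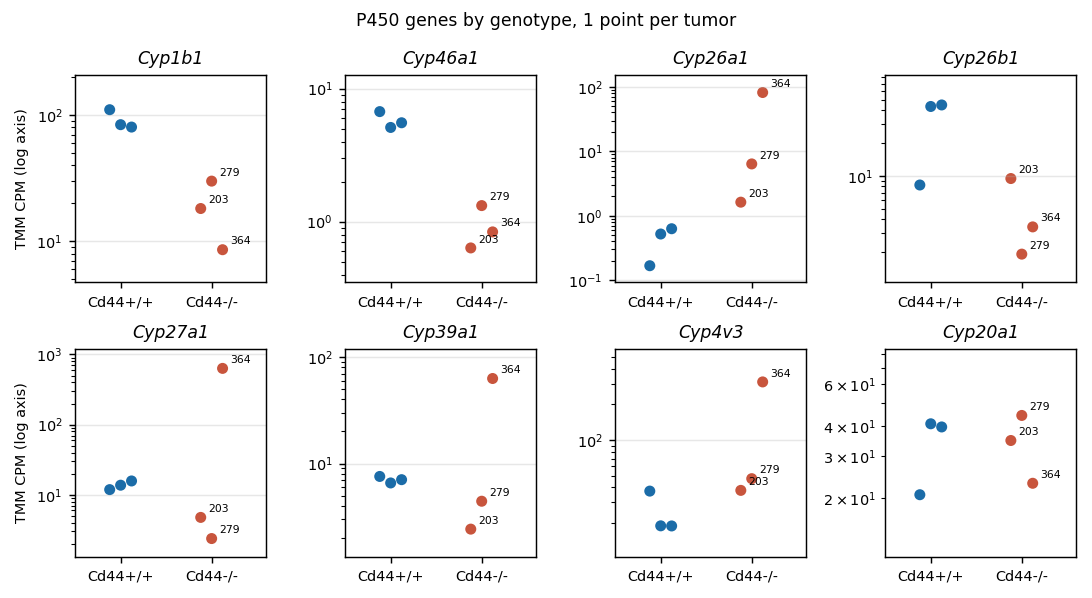
Level (TMM CPM, log axis) of 8 P450 genes in the 3 *Cd44*+/+ tumors (blue) and the 3 *Cd44*-/- tumors (red, labelled by mouse number), 1 point per tumor. The genotypes are separate for *Cyp1b1*, *Cyp46a1*, *Cyp26a1* and *Cyp4v3*, No364 alone is high for *Cyp27a1* and *Cyp39a1*, and *Cyp20a1* overlaps.

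The *Cyp26a1* promoter is known for elements through which retinoic acid switches on its own breakdown. The 250 bases before its RefSeq start (chr19:37697558-37697807, plus strand, GRCm38.p6) hold 1 pair of direct repeats of AGTTCA separated by 5 bases, on the opposite strand, shown in capitals from base -32 to -16.
Cyp26a1 promoter: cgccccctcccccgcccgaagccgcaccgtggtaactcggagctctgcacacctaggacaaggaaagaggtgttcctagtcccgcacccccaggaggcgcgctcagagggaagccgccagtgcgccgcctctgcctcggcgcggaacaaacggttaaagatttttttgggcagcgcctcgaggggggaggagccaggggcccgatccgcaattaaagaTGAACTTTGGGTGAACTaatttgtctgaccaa
Searched on both strands with any 5 bases between the repeats, the pair occurs in 7 of 32851 promoter windows (0.0213%) and in no other of the 72 member genes with a window. No other letters were allowed in the repeats, so the low share follows from the strict pattern. The promoter was already known for such elements, so finding the pair in it is no test. The match is a description of the sequence and does not show that the element was in use in these tumors.

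Of 11 genes that handle retinoids, 10 were tested, and 3 were higher at an unadjusted edgeR p under 0.05 and 0 lower, against 6.44% and 4.31% of all genes. Without No364, 2 were higher and 1 lower. *Crabp1*, a retinoic acid-binding protein, was 240 CPM in No279 and 20.5 CPM in No364 but 0.119 CPM in No203, below the *Cd44*+/+ range of 0.252 to 1.77 CPM. *Rbp4*, the plasma carrier of retinol made by liver, reached 3657 CPM in No364. None of the list was called by edgeR, and 2 were called by DESeq2. DESeq2 gave *Crabp1* an adjusted p of 0.0150, and 0.0723 with No316 and No368 summed.

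Sterol P450s split into liver genes of No364 and genes of all tumors. *Cyp7a1* and *Cyp8b1*, which start and steer bile acid synthesis in liver, were 337 and 308 CPM in No364 and at most 0.336 and 0.756 CPM elsewhere. *Cyp27a1* (chr1:74713574-74737892, plus strand), a mitochondrial sterol 27-hydroxylase that many tissues use, was 11.8, 13.7 and 15.7 CPM in the *Cd44*+/+ tumors and 4.76, 2.38 and 634 CPM in No203, No279 and No364. No203 and No279 lay below all *Cd44*+/+ tumors and No364 far above them. Its log2 fold change was 3.96 (SE 1.98, edgeR adjusted p = 0.49) with all tumors, -1.94 (SE 0.51, unadjusted p = 0.010) without No364 and -2.37 with the hepatocyte score as a covariate. DESeq2 gave no adjusted p for *Cyp27a1* with all tumors and 0.0275 without No364, and the edgeR adjusted p without No364 was 0.55.

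*Cyp39a1*, which hydroxylates 24-hydroxycholesterol, was likewise lower in No203 and No279 than in each *Cd44*+/+ tumor and highest in No364, with 7.56, 6.57 and 7.05 CPM in the *Cd44*+/+ tumors and 2.42, 4.42 and 63.0 CPM in No203, No279 and No364. The log2 fold change of *Cyp39a1* was 1.72 (SE 1.18) with No364 and -1.04 (SE 0.52) without it. *Cyp7b1*, the oxysterol 7α-hydroxylase, was 2.52, 0.139 and 0.294 CPM against 1.55, 4.92 and 120 CPM, with No244 within the *Cd44*-/- range. *Cyp51*, the lanosterol demethylase of cholesterol synthesis, was 15.5, 87.8 and 85.1 CPM against 116, 110 and 353 CPM (log2 fold change 1.62, SE 0.80, edgeR adjusted p = 0.49, and 0.84 without No364).

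*Cyp46a1* (chr12:108334381-108362234, plus strand), the cholesterol 24-hydroxylase known from neurons, had the smallest unadjusted edgeR p among the 29 tested members. Its level was 6.72, 5.11 and 5.54 CPM in the *Cd44*+/+ tumors and 0.634, 1.32 and 0.837 CPM in No203, No279 and No364, from raw counts of 80, 147 and 132 and of 16, 40 and 16. The lowest *Cd44*+/+ tumor thus stood well above the highest *Cd44*-/- tumor, and No364 did not stand out. The means were 6.02 ± 0.99 CPM (SD, n = 2) and 0.931 ± 0.35 CPM (SD, n = 3). The log2 fold change was -2.63 (SE 0.56, unadjusted p = 0.0025) with an edgeR adjusted p of 0.452, and it lay between -2.97 and -2.44 when each tumor was left out. DESeq2 gave *Cyp46a1* an adjusted p of 0.00048 with all tumors, 0.0050 without No364 and 0.0519 with No316 and No368 summed, and 17 alternatives ran from 0.00048 to 0.989.

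Of 13 genes that make, take up or move sterols, all were tested, with 5 higher at an unadjusted edgeR p under 0.05 (among them *Hmgcs1*, *Sqle* and *Scp2*) and 0 lower, against 6.44% and 4.31% of all genes. edgeR called 0 of them and DESeq2 called 1, *Sqle*. 9 of the 13 were highest in No364, and without No364 there were 2 higher and 0 lower at p under 0.05, with 8 positive and 5 negative fold changes. *Sqle*, squalene epoxidase, was 16.2, 20.6 and 20.3 CPM against 37.7, 88.7 and 196 CPM (log2 fold change 2.496, SE 0.62, and 1.74 without No364). Lanosterol synthase (*Lss*) was 3.70, 17.97 and 18.8 CPM against 20.6, 22.8 and 125 CPM. All *Cd44*-/- levels lay above the *Cd44*+/+ levels in 6 of the 13, among them *Hmgcs1*, *Sqle* and *Scp2* (background 9.49%). Those of *Cyp51* also lay above, while those of *Cyp46a1*, which removes cholesterol, lay below. A link between these genes was not tested.

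Vitamin D P450s were low, and among them *Cyp2r1* alone was highest in No364. *Cyp2r1*, the main 25-hydroxylase, was 1.85, 0.938 and 0.714 CPM in the *Cd44*+/+ tumors and 0.991, 0.957 and 21.5 CPM in No203, No279 and No364. *Cyp27b1*, which makes the active hormone, was 0.420, 0.695 and 1.01 CPM against 0.397, 0.165 and 0.0523 CPM, the last from 1 count. *Cyp24a1*, which destroys the hormone and is its most responsive target, was at most 0.336 CPM in No244 and at 0 counts in No203 and No364. The vitamin D receptor *Vdr*, named after its values were seen, was 126, 72.3 and 68.3 CPM against 164, 20.4 and 1.99 CPM. *Cyp24a1* had 0 to 4 counts in every tumor, whatever the level of the receptor, too few to set the 2 genes against each other. Of 7 genes that handle vitamin D, 4 were tested and 2 were higher and 0 lower at an unadjusted edgeR p under 0.05 (6.44% and 4.31% of all genes). These were *Gc*, the plasma carrier made by liver, at 9390.3 CPM in No364 and 2.39 to 6.72 CPM elsewhere, and *Dhcr7*, which draws the precursor into cholesterol, at 7.81, 9.77 and 8.35 CPM against 20.5, 18.1 and 123 CPM. Without No364, *Dhcr7* alone was at p under 0.05.

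Steroid hormone P450s were hardly found. *Cyp11a1*, which cleaves the cholesterol side chain, was 2.69 CPM in No244 and at most 0.168 CPM elsewhere. *Cyp17a1*, the 17-hydroxylase, was 26.2 CPM in No364 and at most 0.168 CPM elsewhere. *Cyp21a1* reached 1.78 CPM in No364, *Cyp11b1* and *Cyp11b2* stayed at or below 0.420 CPM, and aromatase (*Cyp19a1*) had no count in any tumor. None of the 6 steroid hormone genes passed the low-count filter of edgeR. DESeq2 gave *Cyp11a1* a log2 fold change of -4.67 (adjusted p = 0.124), from 32, 4 and 4 counts in the *Cd44*+/+ tumors and 2, 1 and 0 counts in No203, No279 and No364. The 6 steroidogenic cell markers summed to between 2.18 and 12.5 CPM over all tumors.

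*Cyp20a1* varied little between tumors. It was 20.7, 40.9 and 39.7 CPM in the *Cd44*+/+ tumors and 34.9, 44.4 and 23.1 CPM in No203, No279 and No364, with a log2 fold change of 0.01 (SE 0.41, edgeR adjusted p = 0.99). No364, with the highest level of most members, was among the lower values here. *Cyp20a1* overlaps another gene on the same strand, and 95.4% of its 51-base stretches were its own.

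The genes that feed electrons and heme to P450s were present in every tumor. Of 11 such genes, all tested, 3 were higher at an unadjusted edgeR p under 0.05 and 0 lower, against 6.44% and 4.31% of all genes, and edgeR and DESeq2 both called 0. 10 of the 11 were highest in No364, and without it 1, *Cyb5a*, was at p under 0.05. *Cyb5a*, cytochrome b5, was 29.7, 52.4 and 51.5 CPM in the *Cd44*+/+ tumors and 61.8, 144 and 1322 CPM in No203, No279 and No364 (log2 fold change 3.51, SE 1.2, and 1.21 without No364). *Alas1*, the first step of heme synthesis, was 9.83, 17.3 and 15.7 CPM against 20.8, 27.7 and 668 CPM, and *Fdx1*, the mitochondrial ferredoxin, was 9.999, 7.92 and 8.14 CPM against 12.9, 13.6 and 126 CPM. P450 reductase (*Por*), named after its values were seen, was 30.5, 52.1 and 54.7 CPM against 31.0, 88.9 and 430 CPM. The lowest of these levels in any tumor was 7.92 CPM, also where drug-metabolizing P450s were under 1 CPM. Of 22 regulators of P450 genes, 16 were tested, and 2 were higher and 0 lower at an unadjusted edgeR p under 0.05 (6.44% and 4.31% of all genes), *Ahr* and the bile acid receptor *Nr1h4* (0, 0.626 and 0.924 CPM against 0.198, 3.66 and 74.1 CPM). Of the 16, 1 had all *Cd44*-/- levels above the *Cd44*+/+ levels and 0 had all below (background 9.49% and 9.57%). This was *Srebf2*, which turns on sterol synthesis, at 42.3, 40.2 and 42.0 CPM against 45.8, 122 and 78.7 CPM (log2 fold change 0.99, SE 0.42, and 1.03 without No364). Without No364, 0 regulators were higher and 0 lower at p under 0.05, with 6 positive and 10 negative fold changes.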

How the data were processed

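RNA of 6 primary mouse osteosarcomas was read as raw counts per Ensembl gene, which the authors deposited without normalization. By the study's methods and the submitters' processing notes, poly(A) RNA was made into stranded libraries and sequenced from one end with 51 cycles, bases were called with bcl2fastq 1.8.4, and reads were aligned to GRCm38 with HISAT2 2.0.2 and counted with featureCounts (Subread 2.0.0). The strand setting and the handling of reads that match several genes are not given in the sources used here. All 6 count columns were used. Symbols came from GENCODE M21 for 37693 of 39179 identifiers, another release than the one counted.

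The genotype difference was fitted by the quasi-likelihood F test of edgeR 4.0.16 (R 4.3.3) with genotype as the single factor, TMM scaling, the filterByExpr filter and Benjamini-Hochberg adjustment over 16839 genes, with a biological coefficient of variation of 0.708. Alternatives were DESeq2 1.42.0, limma-voom (limma 3.58.1), other scalings and filters, a hepatocyte score as a covariate, No316 and No368 summed, and leaving out tumors. The fits were tested on simulated counts. P-values measure the spread between these libraries, labelled as 1 library per mouse. The reported fit entered No316 and No368 as separate libraries, and if they are the same library, that spread is understated. With the pair summed, the unadjusted edgeR p was 0.0089 for *Cyp1b1*, 0.0129 for *Cyp46a1* and 0.0236 for *Cyp26a1*.

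Members and gene lists were chosen with earlier results of these data known. Named with values were all members outside families 1 to 4 and, within them, the 20 highest by mean, the 10 highest by median, up to 10 with the smallest unadjusted edgeR p, members without overlap at a mean of 1 CPM or more, *Cyp1a1*, *Cyp1b1*, *Cyp2r1*, *Cyp2e1* and the sex-predominant genes. Genes of other lists were named at an unadjusted p under 0.05 or without overlap, and the values of some of these are not reported here. Promoters are those of RefSeq on GRCm38.p6, and proteins were not analysed here.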

Additional observations from a re-analysis of the deposited data

How the results depend on the processing

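No paired analysis was possible because the mouse numbers in the labels are not shared between the genotypes. edgeR and limma-voom called 0 P450 genes under every setting run, and DESeq2 called 3, 1 with No316 and No368 summed and 3 without No364 (the last 2 settings were chosen after seeing the data). P450 genes at an unadjusted p under 0.05 numbered 16 in the reported fit, 54 with no low-count filter, 5 with at least 10 counts in every tumor, 4 by limma-voom, 8 with No316 and No368 summed, 4 with No364 also left out, 6 with the hepatocyte score and from 6 to 31 when each tumor was left out (7, 8 and 6 without No244, No316 and No368, 31, 26 and 6 without No203, No279 and No364). Members without overlap numbered 7 as reported, 15 with no filter, 4 with at least 10 counts, 11 with the pair summed and from 10 to 21 when each tumor was left out, the last without No244. Summing the pair or leaving out a tumor sets 2 levels against 3, which makes a lack of overlap easier for any gene. Members highest in No364 numbered 17, 63 with no filter, 7 with at least 10 counts and 32 with the pair summed, since these settings keep other numbers of members. The summed CPM of families 1 to 4 in No244 was 190 by library size alone. For other families it was 156 in No316 by library size without mitochondrial genes, and 152 and 162 in No368 by library size alone and without mitochondrial genes.

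Of 437 log2 fold changes of 28 named genes under alternatives, 381 kept their direction and their side of the threshold, 50 of 13 genes changed sign and 6 (*Cyp1b1*, *Cyp26a1* and *Cyp46a1* by DESeq2) passed it. Without No364 by edgeR, with the pair also summed, with the hepatocyte score and without No364 by DESeq2, in that order, *Cyp27a1* was -1.94, -1.90, -2.37 and -1.96, *Cyp2a4* -0.93, -1.21, -1.30 and -0.94, *Cyp2d26* -0.50, -0.48, -0.94 and -0.52, *Cyp2e1* -0.48, -0.76, -0.97 and -0.48, *Cyp2r1* -0.24, -0.44, -0.43 and -0.23, and *Cyp39a1* -1.04, -1.07, -1.20 and -1.04. *Cyp2j6* was -1.68, -1.43, -2.03 and -1.70 in the same order and -0.11 by limma-voom. *Cyp2a5* was -0.00069, -0.32 and -0.39 under the first 3 of these, and *Cyp3a11* and *Cyp4f14* were -0.23 and -0.21 with the hepatocyte score. Values close to 0 changed sign for *Cyp20a1* (-0.0022 with DESeq2's size factors, -0.090 by library size alone, -0.00017 with no filter, -0.0026 by DESeq2, -0.017 by limma-voom and -0.25 to -0.040 when single tumors were left out), for *Cyp4f18* (-0.044 by limma-voom, -0.013 by DESeq2 without No364 and -0.063 to -0.056 when single tumors were left out) and for *Cyp4f13* (0.00015 by library size alone, 0.12 by limma-voom and 0.19 to 1.32 when single tumors were left out, the last without No244). When single tumors were left out, values reached 0.23 for *Cyp20a1*, 4.53 for *Cyp27a1*, 8.88 for *Cyp2a4*, 9.99 for *Cyp2a5*, 8.73 for *Cyp2d26*, 10.5 for *Cyp2e1*, 2.88 for *Cyp2j6*, 3.28 for *Cyp2r1*, 2.24 for *Cyp39a1* and 0.68 for *Cyp4f18*, and -1.26 for *Cyp4f13*. The cause was not tested. Levels near the floor of 3 counts, as for the vitamin D and steroid P450s, are limited by depth.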
